A study of Arabidopsis thaliana with 4 samples.

Results

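At 83 loci of Arabidopsis thaliana the co-translational RNA decay index was at or above 1.5 in every one of 4 libraries. They were chosen by their index alone, out of 23498 loci with an index in at least 1 library and 17049 with one in all 4. A second condition of the choice was that in no library more than 10 loci shared the locus's exact value, which left 6572 loci that could qualify. Such shared values are called repeated here, and they arise readily when a ratio is made of few reads. The 83 loci are 1.26% of the 6572. Because the index in all 4 libraries chose them, their high level is a description and not a result.

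The index comes from GMUCT, an assay of uncapped and cleaved transcripts that reads the front ends of polyadenylated RNAs that have lost their cap. The first group holds 2 libraries of a loss-of-function mutant of ABH1 in the Col-0 ecotype, titled abh1_1 and abh1_8 and called abh1 replicates 1 and 2 below. Whether these are alleles, lines or replicates of 1 line is not stated, so the spread, SE and p-values of abh1 may hold differences between lines. The second holds 2 libraries titled Col-0_CHX, with the wild type as genotype and the same ecotype. All 4 are labelled as immature inflorescence from plants aged about 4 weeks under 16 h of light and 8 h of dark, without further treatment. What CHX stands for is not given, and genotype and that part of the title differ together. Nothing states that replicates came from separate plants, so any p-value covers only how far these libraries differ, and that may be technical in part. Of the tissue's markers, both abh1 libraries listed all 15 floral and all 5 anther genes. Both Col-0_CHX libraries listed 3 of the floral and 0 of the anther genes, while all 5 leaf genes were listed in all 4 libraries. Fewer loci of any kind were listed in Col-0_CHX, 18321 and 18215, against 22495 and 22492 in abh1. Whether the tissue differs between the groups was not tested.

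Loss of the cap exposes a messenger RNA to exonucleases that digest it from the front. In plants the enzyme of the cytoplasm is XRN4, and it can follow the last ribosome along an RNA that is still being translated. The front ends left behind then step along the coding region with the ribosome, codon by codon, which is the trace that studies of co-translational decay look for. ABH1, also known as CBP80, is a cap-binding protein of the nucleus that holds the cap of new transcripts and serves splicing and microRNA processing. How the index was calculated is not stated in the labels or files, so what a value of 1 stands for is open. The number of reads behind an index is unknown, and extreme ratios are rare, so a value can escape the limit on repeated values and still rest on few reads.

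The threshold of 1.5 lay at different heights in the 2 groups. Among the 6572 loci it was reached by 5.74% and 5.60% in the abh1 libraries, against 34.1% and 26.9% in the Col-0_CHX libraries. The medians of these loci were 1.14 and 1.14 in abh1 and 1.35 and 1.28 in Col-0_CHX. A single cut thus took the upper edge of the abh1 libraries and a broad upper part of the Col-0_CHX libraries. The 83 loci themselves had medians of 1.85 and 1.81 in abh1, and in Col-0_CHX the medians were 1.97 and 1.95. An index as high as these medians was held by 1.45% and 1.81% of the 6572 loci in abh1, against 10.5% and 7.40% in Col-0_CHX.

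**Figure D1:**
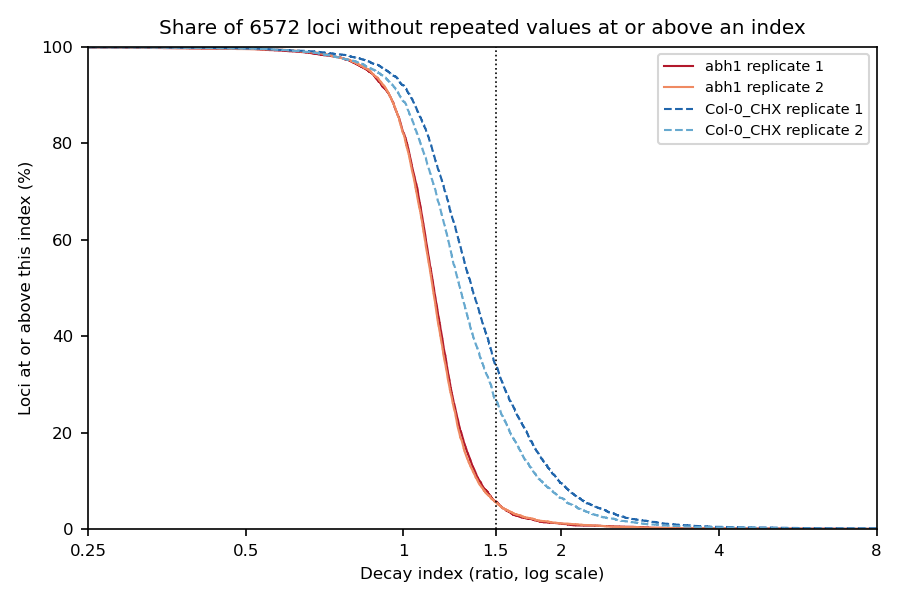
Percentage of the 6572 loci without repeated values that were at or above a given decay index (ratio, log scale), one line per library, with the threshold of 1.5 as a dotted line. At 1.5 the abh1 lines stood at 5.74% and 5.60%, and the Col-0_CHX lines at 34.1% and 26.9%.

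The values reached far above the threshold at a few loci and lay close to it at many. The lowest index of a locus over its 4 libraries was from 1.5 to under 1.6 at 33 of the 83 loci, from 1.6 to under 1.8 at 24, from 1.8 to under 2 at 9, from 2 to under 3 at 15 and above 3 at 2. Another 69 loci without repeated values had a lowest index from 1.4 to under 1.5, so the edge of the group cuts through a dense part of the distribution. Just inside were AT3G45620, AT5G67630 and AT5G27690, with lowest indices of 1.503, 1.51 and 1.51. Just outside were AT3G02340, AT2G32870 and AT4G27050, with 1.498, 1.49 and 1.49. The lowest of the 4 values was in abh1 replicate 1 at 33 loci, in abh1 replicate 2 at 13, in Col-0_CHX replicate 1 at 17 and in Col-0_CHX replicate 2 at 20. Across the 4 libraries the highest value of a locus was 1.07 to 5.77 times its lowest, with a median of 1.38.

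**Figure D2:**
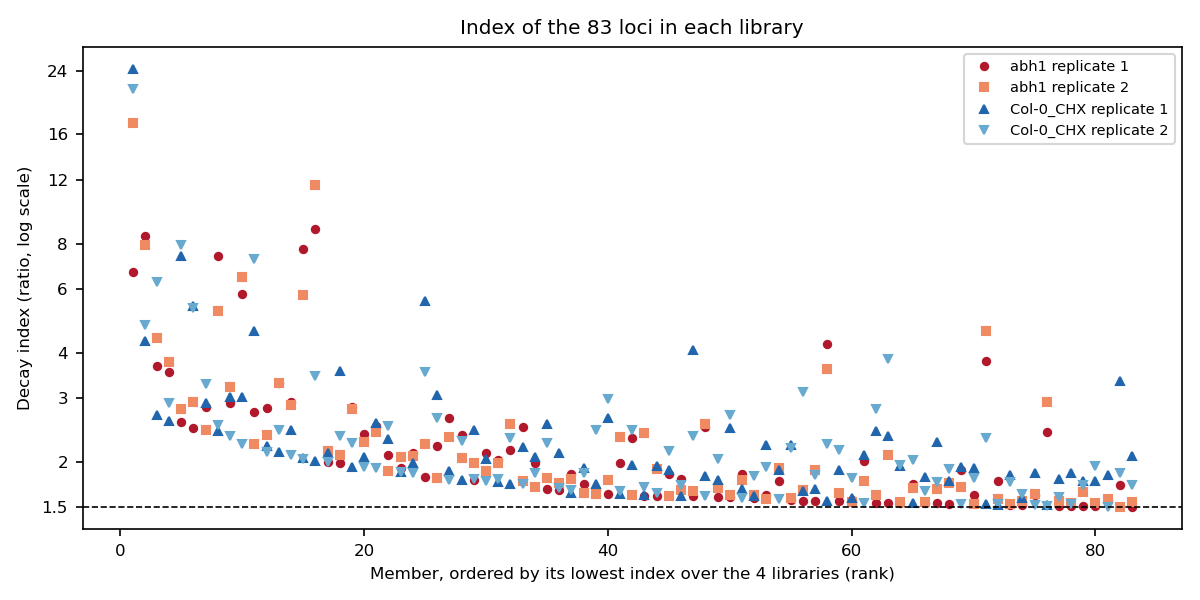
Decay index (ratio, log scale) of the 83 loci in each of the 4 libraries, ordered from left to right by the lowest index of the locus, with the threshold of 1.5 as a dashed line. At the left AT5G63905 reached 24.3, and 33 loci had a lowest index under 1.6.

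All 83 loci were found in the RefSeq gene table, 32 of them with a symbol (38.6%, against 51.5% of the 6572 loci). Those with a symbol had medians of 1.81 and 1.77 in abh1, and in Col-0_CHX the medians were 1.89 and 1.94. For the 51 without a symbol the medians were 1.85 and 1.90 in abh1 and 2.05 and 2.04 in Col-0_CHX. The medians were thus slightly higher without a symbol in every library, a difference that was not tested, and the account by role that follows can cover only the 32. No class of words in the gene names gathered more than 3 of the 83 loci. With names for fewer of the 83 than of the 6572, such counts are low from the start and are not read further. At 25 of the 83 loci the 2 groups overlapped (30.1%), as they did at 35.5% of the 6572 loci. Of the 6572, 54.8% had both abh1 values below both Col-0_CHX values and 9.78% had them above. Separate groups with abh1 lower are thus the more common case in these libraries, and separate groups with abh1 higher are not.

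The highest named locus was EDS16, also called ICS1, the plastid isochorismate synthase that starts the main route to the defence hormone salicylic acid. EDS16 stood at 8.42 and 7.90 in abh1, compared with 4.32 and 4.77 in Col-0_CHX. Both abh1 values lay above both Col-0_CHX values, as at 9.78% of the 6572 loci, and all 4 were far above the medians of the libraries. ICS2, the other isochorismate synthase gene, had 1.20 and 1.402 in abh1 and 1.5 and 1.42 in Col-0_CHX, with a repeated value in at least 1 library.

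Other genes of hormones and defence lay nearer the threshold. CORI3, a lyase-like protein induced by jasmonate and coronatine, had 1.85 and 1.80 in abh1 and 1.64 and 1.67 in Col-0_CHX. BON1, a copine that holds back immune receptor signalling, had 1.99 and 2.35 in abh1 and 1.63 and 1.67 in Col-0_CHX. PSY1, a sulfated peptide that promotes cell expansion, had 1.53 and 1.75 in abh1 and 1.78 and 1.91 in Col-0_CHX. The abh1 values lay above those of Col-0_CHX for CORI3 and BON1 and below them for PSY1, without overlap. Of the 6572 loci 9.78% were apart with abh1 higher and 54.8% with abh1 lower.

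Among genes of the light response were RUP1, PAR2 and BBX17. RUP1, which represses the ultraviolet-B receptor UVR8, had 2.12 and 1.88 in abh1 and 2.04 and 1.78 in Col-0_CHX, so that the groups overlapped. PAR2, an atypical basic helix-loop-helix protein that restrains shade avoidance, overlapped too, with 2.49 and 1.77 in abh1 and 2.19 and 1.74 in Col-0_CHX. BBX17, a B-box zinc finger protein, differed from both in that its groups were apart. It had 1.64 and 1.78 in abh1, compared with 2.65 and 2.98 in Col-0_CHX. Such an order, with abh1 lower, was held by 54.8% of the 6572 loci. Relatives such as BBX12, BBX14, BBX15, BBX16 and BBX18, some with a repeated value, were likewise apart with abh1 lower. BBX8 and BBX19 were apart with abh1 higher.

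HB16, a class I homeodomain leucine zipper factor, had the steadiest index of the 32. Its values were 2.00 and 2.15 in abh1 and 2.12 and 2.00 in Col-0_CHX, a range of 0.10 on the log2 scale. Its relatives HB5 and HB6 had 1.36 and 1.37, and 1.12 and 1.20, in abh1, compared with 1.99 and 1.88, and 1.72 and 1.59, in Col-0_CHX. In abh1, then, HB16 stood above both relatives by a wider margin than in Col-0_CHX. The rule held HB16, but not its relatives, at 1.5 or more, and most loci were lower in abh1. Nothing is therefore read from that margin. HB16 was steady in value but not in rank, which among the 6572 loci was 75 and 65 in abh1 and 470 and 424 in Col-0_CHX. NAC041, a transcription factor with a NAC domain, lay just above the threshold in abh1, with 1.51 and 1.65 there and 1.77 and 1.73 in Col-0_CHX.

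Plastid proteins were represented by DPE1, Cpn60beta4 and CYP38. DPE1, the disproportionating enzyme that acts on short glucans from starch, had 3.30 and 3.30 in abh1, compared with 2.13 and 2.44 in Col-0_CHX. Cpn60beta4, a subunit of the plastid chaperonin, had 2.11 and 2.07 in abh1 and 1.99 and 1.86 in Col-0_CHX. CYP38, a cyclophilin of the thylakoid lumen needed for photosystem II, ran the other way, with 1.52 and 1.53 in abh1 and 1.84 and 1.75 in Col-0_CHX. The gap between the groups was narrow for Cpn60beta4 and wide for DPE1. Groups apart with abh1 higher were seen at 9.78% of the 6572 loci, and with abh1 lower at 54.8%.

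A pair of genes of iron handling qualified. FH, the frataxin homolog of mitochondria that serves iron-sulphur cluster assembly, had 2.39 and 2.27 in abh1 and 2.06 and 1.93 in Col-0_CHX. IREG1, a ferroportin that exports iron from cells, had 1.51 and 1.54 in abh1 and 1.78 and 1.95 in Col-0_CHX. FH was higher in abh1 and IREG1 lower, each without overlap. Groups were apart with abh1 higher at 9.78% of the 6572 loci and with abh1 lower at 54.8%.

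Of the metabolic enzymes NUDT17, a nudix hydrolase, was highest. It had 3.54 and 3.76 in abh1, compared with 2.60 and 2.91 in Col-0_CHX. MDAR4, the peroxisomal enzyme that regenerates ascorbate, had 1.57 and 1.55 in abh1 and 1.59 and 1.80 in Col-0_CHX. The values of MO1, a monooxygenase, were 1.77 and 1.58 in abh1 and 1.52 and 1.53 in Col-0_CHX. HAOX1, a 2-hydroxy acid oxidase, had 1.74 and 1.70 in abh1 and 1.54 and 2.02 in Col-0_CHX. The groups overlapped for HAOX1, and MO1 was higher and MDAR4 lower in abh1 by narrow gaps. Background shares over the 6572 loci were 9.78% apart with abh1 higher and 54.8% with abh1 lower.

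All 4 genes of the cell wall and of glycine-rich proteins had a lower index in both abh1 libraries than in either Col-0_CHX library. GUS2, a glucuronidase that acts on wall glycans, had 1.60 and 1.62 in abh1, compared with 2.48 and 2.69 in Col-0_CHX. XTH24, which cuts and rejoins xyloglucan, had 1.74 and 1.64 in abh1 and 1.92 and 1.87 in Col-0_CHX. The margin was smaller for XTH24 than for GUS2. GRP5 had 1.54 and 1.55 in abh1 and 1.95 and 1.96 in Col-0_CHX, and GRP23 had 1.60 and 1.70 in abh1 and 1.79 and 2.04 in Col-0_CHX. These 4 were grouped after their values were seen, and of all 6572 loci 54.8% had both abh1 values below both Col-0_CHX values.

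Cell division and growth were represented by CYCD3;3, a D-type cyclin that drives entry into the cell cycle, and TRM3, a protein of the group that organises cortical microtubules. CYCD3;3 had 2.93 and 2.87 in abh1 and 2.45 and 2.09 in Col-0_CHX. TRM3 had 1.57 and 1.59 in abh1 and 2.22 and 2.19 in Col-0_CHX. The cyclin was thus higher in abh1 and TRM3 higher in Col-0_CHX, in each case without overlap. The order of the cyclin was that of 9.78% of the 6572 loci, and the order of TRM3 that of 54.8%.

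Genes of protein turnover, dephosphorylation and sorting included TOPP5, a type 1 protein phosphatase, with 4.24 and 3.60 in abh1, compared with 1.56 and 2.24 in Col-0_CHX. ATE1, which adds arginine to protein ends and so marks them for degradation, had 2.02 and 1.98 in abh1 and 1.76 and 1.79 in Col-0_CHX. For both genes the abh1 values lay above the Col-0_CHX values, as they did at 9.78% of the 6572 loci. ATL63, a RING-H2 protein of the ubiquitin ligase family, had 2.15 and 2.55 in abh1 and 1.74 and 2.32 in Col-0_CHX, and VPS35C, a retromer subunit, had 1.62 and 1.63 in abh1 and 1.86 and 1.52 in Col-0_CHX. At these last loci the groups overlapped.

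The other 4 symbols fall outside these roles. CF9 had 3.79 and 4.59 in abh1 and 1.53 and 2.32 in Col-0_CHX, and emb1967, named for a defect of the embryo, had 2.51 and 2.42 in abh1 and 2.56 and 1.93 in Col-0_CHX. EMB3103, named for the same kind of defect, had 1.68 and 1.64 in abh1 and 1.74 and 2.44 in Col-0_CHX. COG0212 had 1.68 and 1.75 in abh1 and 2.12 and 1.69 in Col-0_CHX. The groups overlapped for emb1967 and COG0212 and were apart for CF9 and EMB3103, with CF9 higher in abh1 (background 9.78% of the 6572 loci) and EMB3103 lower (54.8%).

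Named relatives of these genes were not high in every library. For 19 of the 32 symbols at least 1 relative by name had an index in all 4 libraries, 80 relatives in all, and 0 of the 80 reached 1.5 in all 4. Only 26 of the 80 were free of repeated values and could have qualified, and with 1.26% of such loci qualifying a count of 0 in 26 is near the background. The relatives had medians of 1.13 and 1.14 in abh1 and 1.28 and 1.248 in Col-0_CHX, close to the library medians. That the named loci stand above such medians follows from the rule. VPS35A had 1.23 and 1.18 in abh1 and 1.43 and 1.04 in Col-0_CHX, and VPS35B had 1.36 and 1.47 in abh1 and 1.09 and 1.29 in Col-0_CHX. Some relatives exceeded the named locus in single libraries. BBX15 had 1.13 and 1.15 in abh1 and 3.05 and 2.54 in Col-0_CHX, where the 3.05 was above the 2.65 of BBX17 in the same library. A repeated value was present at 54 of the 80, BBX15 among them.

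**Figure D3:**
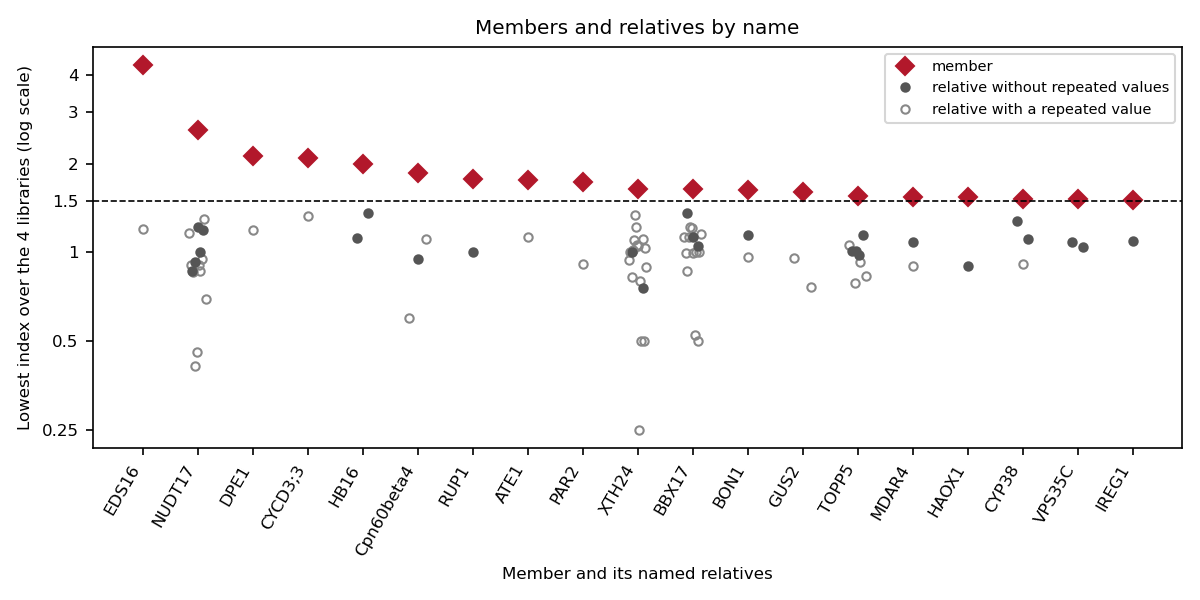
Lowest index over the 4 libraries (log scale) of 19 of the 83 loci (red diamonds) and of their 80 relatives by name (grey circles, open where a value was repeated), with the threshold of 1.5 as a dashed line. The diamonds run from 4.32 for EDS16 to 1.51 for IREG1, and 0 relatives lie above the line.

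The loci without a symbol held the most extreme values, and those named in the next sentences were picked after their values were seen. AT5G63905 had the highest lowest index, with 6.69 and 17.2 in abh1 and 24.3 and 21.3 in Col-0_CHX. Its 2 abh1 values differed from each other more than either Col-0_CHX value differed from its replicate. AT4G39670 had 8.75 and 11.6 in abh1, compared with 2.00 and 3.45 in Col-0_CHX, and AT1G72940 had 7.73 and 5.78 in abh1, against 2.05 and 2.04. AT3G59020 had 7.37 and 5.23 in abh1, compared with 2.43 and 2.52 in Col-0_CHX, and AT5G04170 had 5.79 and 6.48 in abh1, against 3.02 and 2.25. These last 4 were far higher in abh1 than in Col-0_CHX. The opposite order was seen at AT3G03030, with 2.58 and 2.79 in abh1, compared with 7.39 and 7.91 in Col-0_CHX, and at AT2G07718, with 2.48 and 2.93 in abh1, against 5.39 and 5.33. AT2G33830, which the name table calls dormancy associated gene 2, had 1.61 and 2.41 in abh1 and 1.62 and 1.70 in Col-0_CHX.

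The comparison the design implies, abh1 with Col-0_CHX, was made with limma on log2 indices over whole tables. The median log2 difference of the 83 loci, abh1 minus Col-0_CHX, was -0.078, against -0.21 over the 6572 loci and -0.23 over all 17049. With each library centred on its median it was 0.14 for the 83, and with quantile normalization it was 0.53. The index was lower in abh1 at 48 of the 83 loci and higher at 35, where 77.0% of the 6572 loci and 72.2% of all 17049 were lower. After centring 28 of the 83 had a lower index in abh1 and 55 a higher one, and after quantile normalization 8 were lower and 75 higher. Both abh1 values were above both Col-0_CHX values at 23 of the 83 loci (background 9.78%) and below them at 35 (background 54.8%), and the groups overlapped at 25. The same 4 libraries chose the loci, and the threshold was rarer in abh1, so nothing is read from how these counts differ from the background.

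Over all 17049 loci 0 of the 83 passed an adjusted p of 0.05 in limma's test, as did 0 loci in all (0%). At an unadjusted p under 0.05 there were 20 of the 83 and 3422 of all loci (20.1%), with limma the only tool run. Over the 6572 loci without repeated values 11 of the 83 passed, beside a background of 8.63%. The 6 higher in abh1 (background 0.593%) were EDS16, AT3G59020, AT5G04170, AT1G72940, AT4G39670 and AT4G10730. The 5 lower in abh1 (background 8.03%) were BBX17, GUS2, AT3G03030, AT2G07718 and AT1G26620. The values tested are those that chose the loci, and the threshold was rarer in abh1. Nothing is therefore read from how either count differs from its background. That count of 11 was 0 without abh1 replicate 1, 0 without abh1 replicate 2, 15 without Col-0_CHX replicate 1 and 27 without Col-0_CHX replicate 2. It was also 0 with each library centred.

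On the log2 scale the difference of EDS16 was 0.85 ± 0.11 (SE, over the 6572 loci), which is a 1.80-fold higher index in abh1. It was 1.07 with each library centred and 1.81 with quantile normalization. AT4G39670 differed by 1.94 ± 0.31 (SE) and AT1G72940 by 1.71 ± 0.17 (SE). Of the loci lower in abh1, AT3G03030 differed by -1.51 ± 0.11 (SE), BBX17 by -0.72 ± 0.12 (SE) and GUS2 by -0.68 ± 0.10 (SE). Under quantile normalization the differences of BBX17 and GUS2 turned positive, at 0.020 and 0.0095. Of the loci that did not pass, 5 differed by more than 1 in size, and they are named after their values were seen. TOPP5 differed by 1.06 ± 0.22 (SE) and CF9 by 1.15 ± 0.24 (SE), while AT1G08220 differed by -1.22 ± 0.26 (SE), AT5G50180 by -1.14 ± 0.26 (SE) and AT5G63905 by -1.09 ± 0.48 (SE).

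**Figure D4:**
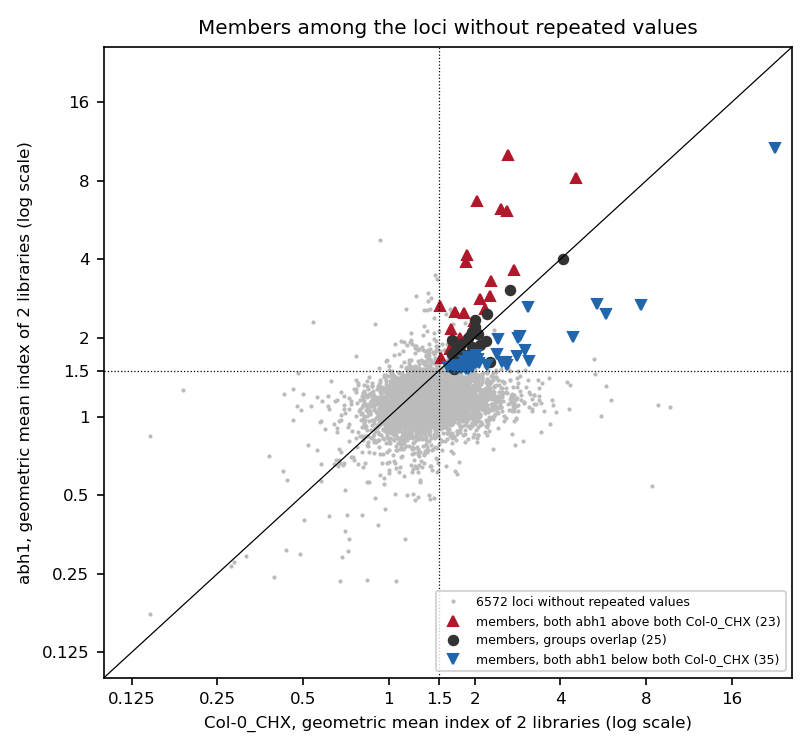
Geometric mean index of the 2 abh1 libraries (vertical, log scale) against that of the 2 Col-0_CHX libraries (horizontal, log scale) for the 6572 loci without repeated values (grey), with the 83 loci marked by whether their groups overlap. The loci with both abh1 values above both Col-0_CHX values number 23, those below 35 and those that overlap 25, and dotted lines mark 1.5.

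The rule was also applied to 1 group alone, and the chosen loci were then read in the other group. Loci at or above 1.5 in both abh1 libraries, without a repeated value there, numbered 577, of which 449 were listed in both Col-0_CHX libraries. Of these 449, 178 (39.6%) were at or above 1.5 in both Col-0_CHX libraries, against 19.6% of the 12532 loci that met the same conditions apart from the threshold. Turned round, 1457 loci qualified in Col-0_CHX and 1452 of them were listed in both abh1 libraries. Of the 1452, 107 (7.37%) were at or above 1.5 in both abh1 libraries, against a background of 3.62%. A high index in one group thus went with a share of high loci in the other that was above the background in both directions. Most loci that were high in one group were nevertheless under 1.5 in at least 1 library of the other. The loci found high in the other group include the 83 themselves in both directions, so the readings overlap with the choice. Restricted to the 6572 loci with no repeated value in any library, the loci found are exactly the 83, as 40.3% of the 206 loci high in both abh1 libraries (background 18.1%) and 6.98% of the 1189 high in both Col-0_CHX libraries (background 3.13%), which restates the rule.

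The share was highest among the loci with the highest index in the group used to sort them, though it did not grow at every step. Where the geometric mean index in abh1 was from 0.75 to under 1, 14.5% of 1786 loci were at or above 1.5 in both Col-0_CHX libraries. From 1.5 to under 1.75 it was 32.3% of 430 loci, from 1.75 to under 2 it was 31.7% of 123, from 2 to under 3 it was 41.5% of 106, and at 3 or above it was 68.4% of 38. At the low end, under 0.5, it was 5.08% of 59 loci. Sorted by Col-0_CHX, the share at or above 1.5 in both abh1 libraries was 4.60% of 87 loci with an index from 0.5 to under 0.75, 2.13% of 516 loci with an index from 0.75 to under 1, 3.99% of 1204 from 1.5 to under 1.75, 9.19% of 457 from 2 to under 3, and 14.7% of 68 at 3 or above. The bins hold the 83 loci, which count as high in the other group by the rule, so the shares are not independent of the choice. Steps between neighbouring bins were not tested, and depth, which may vary with the index, is unknown.

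**Figure D5:**
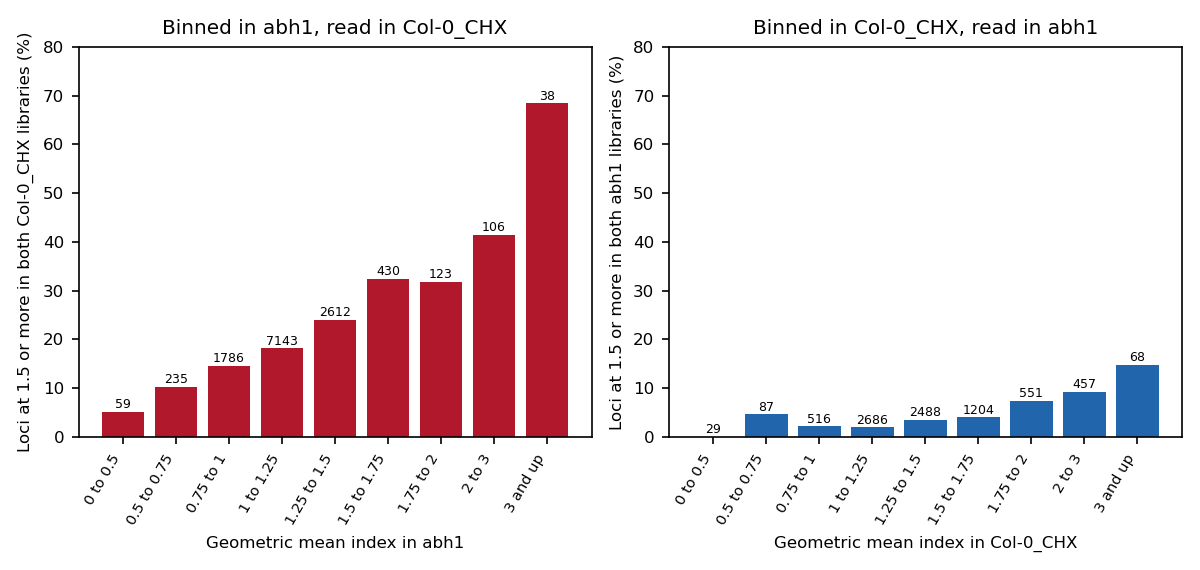
Percentage of loci at or above 1.5 in both libraries of the group not used for sorting, by the geometric mean index in the group used for sorting, with the number of loci above each bar. From the lowest to the highest bin the share ran from 5.08% to 68.4% in Col-0_CHX (left, sorted by abh1) and from 0% to 14.7% in abh1 (right, sorted by Col-0_CHX). The 83 loci are counted in these shares.

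The same was done one library at a time. Loci that met the rule in the other 3 libraries were at or above 1.5 in abh1 replicate 1 at 94 of 149 (63.1%, background 5.94%) and in abh1 replicate 2 at 93 of 154 (60.4%, background 6.02%). In Col-0_CHX replicate 1 it was 116 of 152 (76.3%, background 36.4%), and in Col-0_CHX replicate 2 it was 105 of 156 (67.3%, background 28.8%). The library read always had a partner of its own group among those used for the choice. The background holds all loci that met the other conditions, whether or not that partner was high. The 83 loci meet the rule in every library, so by definition they are part of the 94, 93, 116 and 105. These shares are therefore not independent of the choice. Among the 83 loci, Spearman's rho between libraries was 0.84 within abh1 and 0.59 within Col-0_CHX, and 0.31 to 0.43 between the groups. Over the 6572 loci it was 0.63 and 0.52 within the groups and 0.19 to 0.21 between them. These are descriptions across loci, which share library and depth and are not replicates, and among the 83 all values are bounded from below by the rule.

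Along the chromosomes the 83 loci were spread much as the 6572 were. Chromosome 1 held 21 (25.3%, against 25.9% of the 6572), chromosome 2 held 12 (14.5%, against 15.2%), chromosome 3 held 18 (21.7%, against 20.4%), chromosome 4 held 13 (15.7%, against 16.1%) and chromosome 5 held 19 (22.9%, against 22.4%). A single pair, AT3G45620 and AT3G45630, were direct neighbours in gene order. AT3G45620 had 1.503 and 1.55 in abh1 and 2.07 and 1.73 in Col-0_CHX, and AT3G45630 had 1.99 and 1.71 in abh1 and 2.07 and 1.86 in Col-0_CHX. Of the 112 other direct neighbours with an index in all 4 libraries, 1 (0.893%) was at or above 1.5 in all 4, against 1.45% of all 17049 loci. That one was AT1G10900, beside EMB3103. The medians of these neighbours were 1.11 and 1.13 in abh1 and 1.28 and 1.23 in Col-0_CHX, near those of their libraries, and the rest were under 1.5 in at least 1 library.

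A further 164 loci were at or above 1.5 in all 4 libraries and were left out for a repeated value. In 95 of them it was in Col-0_CHX only, in 24 in abh1 only and in 45 in both groups. Loci dropped for a repeated value in Col-0_CHX alone thus outnumber the 83 that were kept. Repeated values were common among all listed loci, at 43.6% and 42.7% in the Col-0_CHX libraries and 27.2% and 29.3% in abh1. The count is therefore not read as a trait of loci with a high index.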

How the data were processed

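Each of 4 GMUCT libraries has 1 table of gene models with a co-translational RNA decay index. The index was calculated and deposited by the authors as processed values, and its scale, a linear ratio, was inferred here from the values. The log2 indices, fold differences and figure axes rest on that reading. The submitters' processing notes name cutadapt 1.4.2, STAR 2.4.0 and the TAIR10 genome. Neither labels nor files state the formula, the read minimum or the gene annotation. Depth is therefore unknown, and no counting interval or floor was made.

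The 83 loci and all lists were chosen with earlier results of these data known. Log2 indices (no pseudocount) of loci listed in every library went into limma (version 3.58.1, under R 4.3.3; lmFit, eBayes, no covariate, Benjamini-Hochberg adjusted p under 0.05), over 17049 loci and over the 6572 without repeated values. The fit was tested on simulated data with known differences and a common spread for all loci. That does not show how the p-values behave where the spread differs by locus, as it does here. Shares over loci carry no test. Python 3.11.15 with pandas 2.3.3 and numpy 2.4.6 did the rest. Symbols came from RefSeq (TAIR10.1), used for names and gene order only. The rule for names took symbols with the highest lowest index, the largest differences and the smallest range, and the loci beside the threshold. All 32 symbols are given, the others and the families having been chosen after values were seen. Planned descriptions of proteins, promoters and close copies were not run, as no such sequences were used here.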

Additional observations from a re-analysis of the deposited data

How the results depend on the processing

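The number of loci was 83 under the rule, 615 at a threshold of 5/4, 17 at a threshold of 2, 247 with no limit on repeated values, and 149 to 156 when the rule was applied to 3 libraries. With library medians made equal it was 91, of which 65 were among the 83. Of these 83, 11 passed limma over 6572 loci. That number was 6 with a replicate block, 0 with centring, 0 with quantile normalization, 1 with a trended prior, 23 at an adjusted p of 0.1 and 0 to 27 with 1 library left out, where the spread of a single library is taken from the other group. Over 17049 loci it stayed 0 under all 10 alternatives. Deviations of same-numbered libraries had a correlation of 0.011 over 6572 loci. The abh1 replicate numbers were set here and there are 2 libraries per group, so this cannot decide whether libraries are paired. The median log2 difference of -0.078 became 0.14 with centring, 0.53 with quantile normalization, -0.033 as a mean, -0.17 at a threshold of 5/4, 0.25 at a threshold of 2 and -0.11 to -0.047 with 1 library left out. The cause was not tested. Quantile normalization also turned the differences of BBX17 (0.020), GUS2 (0.0095), TRM3 (0.15), GRP5 (0.23), EMB3103 (0.31) and IREG1 (0.26), and gave 1.84 for CF9, 1.75 for TOPP5, 1.34 for DPE1, 1.27 for NUDT17 and 1.03 for BON1. The share high in Col-0_CHX after choice in abh1 was 39.6%, and 54.3% (background 42.4%) at 5/4 and 29.6% (background 4.45%) at 2. After choice in Col-0_CHX the share high in abh1 was 20.8% (background 15.5%) at 5/4. After choice in 3 libraries it was 82.6% (background 1.252%) at 2 in abh1 replicate 2, 84.6% (64.5%) at 5/4 and 66.7% (10.9%) at 2 in Col-0_CHX replicate 1, and 78.6% (56.2%) at 5/4 in Col-0_CHX replicate 2. Loci that met the rule in every library at the same threshold are part of each of these shares. Reading loci without repeated values was added after the data were seen. The unknown depth limits every value.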
